A study of Mus musculus with 5 samples.

Results

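Gzmk CD8 T cells of the heart-draining lymph node were chosen by 6 measured genes, as the cells with at least 1 UMI (unique molecular identifier, a count of RNA molecules) of Cd8a or Cd8b1, at least 1 UMI of Gzmk, and none of Cd4, Foxp3 or Cd79a. The rule gave 941 cells, which were 27.4% of the 3440 CD8 cells and 9.23% of the 10192 cells kept. The other 2499 CD8 cells, with no UMI of Gzmk, are called Gzmk-negative CD8 cells and were the cells they were set against. Since the values of these genes selected the cells, they were left out of every test.

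The lymph node cells were CD44-high T cells, CD4 and CD8 together, sorted from mediastinal lymph nodes of C57BL/6 mice of 2, 6, 12 and 18 months. All were run as 1 droplet library with 5′ gene expression and T cell receptor reads, and 8 antibody hashtags marked the pooled samples before they were mixed. Which age each hashtag marked is not recorded in the labels or files used here. No hashtag was assigned an age, and no test set hashtags against one another. Heart libraries of non-cardiomyocyte cells from 18-month and 2-month mice, 1 library each, were used only for a side count.

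CD8 T cells recognise peptides on MHC class I molecules and kill target cells by releasing granules that hold perforin and granzymes. Granzyme K, the protease encoded by Gzmk, is found mainly in memory-type CD8 cells rather than in terminal killers, and CD8 cells that carry it together with Pdcd1 and Tox have been described as accumulating in the tissues of old mice. Each T cell clone carries 1 receptor made by joining V, D and J gene segments with trimmed and added bases at the joints, so cells with the same junction can be traced to 1 ancestor.

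The junctions of the largest clones of Gzmk CD8 cells are shown because they are what defines a clone here. Each is the nucleotide sequence from the conserved cysteine codon to the phenylalanine codon, 5′ to 3′, with capitals for bases that matched neither the germline end of the V segment nor the start of the J segment. TRB segments lie on chromosome 6 and TRA segments on chromosome 14.

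Clone 1 TRB, TRBV15 and TRBJ2-7: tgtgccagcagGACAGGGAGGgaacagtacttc
Clone 1 TRA, TRAV13-1 and TRAJ13: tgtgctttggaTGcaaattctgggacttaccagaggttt
Clone 2 TRB, TRBV12-2 and TRBJ1-4: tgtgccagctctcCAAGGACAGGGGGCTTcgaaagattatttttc
Clone 2 TRA, TRAV12-3 and TRAJ45: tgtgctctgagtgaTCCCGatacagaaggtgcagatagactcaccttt
Clone 3 TRB, TRBV2 and TRBJ2-1: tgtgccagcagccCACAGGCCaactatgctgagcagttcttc
Clone 3 TRA, TRAV13-1 and TRAJ26: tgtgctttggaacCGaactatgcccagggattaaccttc
Clone 4 TRB, TRBV12-2 and TRBJ1-1: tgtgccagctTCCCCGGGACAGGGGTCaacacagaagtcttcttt
Clone 4 TRA, TRAV8-1 and TRAJ13: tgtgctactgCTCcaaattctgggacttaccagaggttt
Clone 5 TRB, TRBV16 and TRBJ2-7: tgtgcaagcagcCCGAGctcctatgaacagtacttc
Clone 5 TRA, TRAV14D-2 and TRAJ18: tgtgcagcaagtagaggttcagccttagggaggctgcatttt
Hashtag 4 clone TRB, TRBV12-1 and TRBJ2-1: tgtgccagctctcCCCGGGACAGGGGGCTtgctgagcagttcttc
Hashtag 4 clone TRA, TRAV3D-3 and TRAJ23: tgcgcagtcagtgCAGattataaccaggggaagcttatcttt

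Clone 1 had 29 Gzmk CD8 cells among its 30 cells, and clone 2 had 22 Gzmk CD8 cells among 23. Clones 3 and 4 held 14 and 13 cells, all of them Gzmk CD8 cells. Clones 1 to 4 were found under hashtag 7 and clone 5, with 8 Gzmk CD8 cells among 10, under hashtag 8. The clone of hashtag 4 is shown because its 6 cells made up 23.1% of the receptor-bearing Gzmk CD8 cells of that hashtag. The TRB junctions of these 6 clones had between 5 and 17 bases that came from neither segment end, and the TRA junctions between 0 and 5. D segments were not matched, so any D bases of the TRB junctions are counted among them. No pair of these clones shared a TRB junction, although TRBV12-2 was used by clones 2 and 4 and TRAV13-1 by clones 1 and 3.

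The whole library held 13016 barcodes, of which 212 were dropped for few genes or mitochondrial reads and 2612 for an unclear hashtag. Kept cells numbered 775 to 1991 per hashtag, with median depths of 2456 to 3314 UMIs. Every hashtag held both cells with Xist and no Y-linked UMI and cells with a Y-linked UMI and no Xist. The second kind made up between 6.73% of these cells under hashtag 7 and 80.1% under hashtag 2. More than 1 animal per hashtag and cells given to the wrong hashtag are among the possible reasons, and none was tested. Nothing in the labels says that hashtags are separate animals, so p-values over hashtags measure only the spread among these 8 samples, which may in part be technical. With the 2-month heart library 7 barcodes were shared, and 0 with the 18-month heart library.

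The Gzmk CD8 cells held 3502175 UMIs and the Gzmk-negative CD8 cells 12774929. Their median depth was 3538 UMIs per cell, against 4571 in Gzmk-negative cells, and mitochondrial UMIs were 1.80% and 1.85%. When each cell was thinned to 2000 UMIs, which left out 273 Gzmk CD8 and 765 Gzmk-negative cells as too shallow, the median was 959.5 genes per cell in Gzmk CD8 cells and 883 in Gzmk-negative cells. Among cells with Xist or Y-linked UMIs but not both, 13.0% of Gzmk CD8 cells and 43.5% of Gzmk-negative cells pooled over hashtags had Y-linked ones. Within hashtags, where the classes were compared, the share was lower in Gzmk CD8 cells under 7 of 8, by differing amounts. The shares in Gzmk CD8 and Gzmk-negative cells were 12.5% and 51.5% for hashtag 1, 40% and 36.4% for hashtag 3, 55.6% and 56.5% for hashtag 4, 4.25% and 16.5% for hashtag 7 and 10.2% and 14.7% for hashtag 8. The part of sex makeup was not tested, but fold changes within cells that had Xist and no Y-linked UMI were computed for hashtags 5 to 8 as well.

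Of the given markers, Cd8a, Cd8b1 and Gzmk selected the cells, so their presence is no check of the label. Ccl5 and Eomes were free of the rule and more frequent in the class, though many Gzmk-negative cells had them too. Ccl5, the chemokine RANTES, had a UMI in 97.7% of Gzmk CD8 cells, 68.1% of Gzmk-negative CD8 cells and 14.2% of the library's few B cells, which should lack it. Eomes, a transcription factor of memory and effector CD8 cells, had a UMI in 56.2% of Gzmk CD8 cells, 33.5% of Gzmk-negative cells and 0.628% of B cells. All 9 T cell markers, among them Cd3e, Trac and Lck, had UMIs in the class, and Cd8a and Cd8b1 stood at medians over hashtags of 584 and 1226 CPM (UMIs of a gene scaled to a common total per class and hashtag) in Gzmk CD8 cells, against 565 and 1248 CPM in Gzmk-negative cells. In the annotation of GRCm38, Gzmk lies at chr13:113171608-113225908 on the minus strand and Ccl5 at chr11:83525778-83530518 on the minus strand. Eomes lies at chr9:118478212-118486132 on the plus strand.

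A Gzmk CD8 cell carried a median of 3 and at most 47 UMIs of Gzmk, and 235 cells (25.0%) carried just 1. Of 478 B cells 7 (1.46%, exact Clopper-Pearson 95% interval 0.591 to 2.99) also carried a Gzmk UMI, at a median depth of 4015.5 UMIs. B cells should lack the gene, so a share near theirs would be background. The class held 45.4% of all Gzmk UMIs of the kept cells. A further 938 kept cells with Gzmk lay outside it, 408 of them with Cd4.

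Cells just inside the threshold lay between the cells on either side for most genes looked at. Cells with 3 or more, 2, 1 and 0 UMIs of Gzmk numbered 556, 150, 235 and 2499 and had median depths of 4149, 2463.5, 1451 and 4571 UMIs, so cells just inside the rule were the shallowest. Pooled over hashtags, Ccl5 stood at 23026, 18063, 12548 and 3847 CPM in that order. Tox stood at 271, 165, 172 and 42.4 CPM, and Lef1 at 106, 158, 163 and 260 CPM. These values describe the threshold and were not tested.

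Gzmk CD8 cells were found under all 8 hashtags, at 16 of 429 CD8 cells (3.73%, 2.15 to 5.99) for hashtag 1, 16 of 314 (5.10%, 2.94 to 8.14) for hashtag 2, 25 of 326 (7.67%, 5.02 to 11.1) for hashtag 3 and 30 of 317 (9.46%, 6.48 to 13.2) for hashtag 4. They were 97 of 447 (21.7%, 18.0 to 25.8) for hashtag 5, 74 of 273 (27.1%, 21.9 to 32.8) for hashtag 6, 456 of 732 (62.3%, 58.7 to 65.8) for hashtag 7 and 227 of 602 (37.7%, 33.8 to 41.7) for hashtag 8. The intervals are exact Clopper-Pearson 95% intervals and cover counting error only. Those of hashtags 1 and 2 overlapped the interval of B cells with a Gzmk UMI (0.591 to 2.99). Under each of these hashtags 8 of the 16 cells had 2 or more Gzmk UMIs. How many of their cells were background was not tested, and values of these hashtags below carry that limit. With cells thinned to the same depth the shares were 1.98, 3.83, 3.83, 8.47, 17.8, 22.3, 57.8 and 35.5% for hashtags 1 to 8. Hashtag 7 alone gave 456 of the 941 cells, so values pooled over cells lean on it. The gene tests that follow take each hashtag as 1 sample per class, but a sum with more UMIs carries more weight in them. Gzmk CD8 cells gave 1593222 UMIs under hashtag 7 and 80048 under hashtag 2. Only the tests of clonotype shares weigh all hashtags equally.

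**Figure D1:**
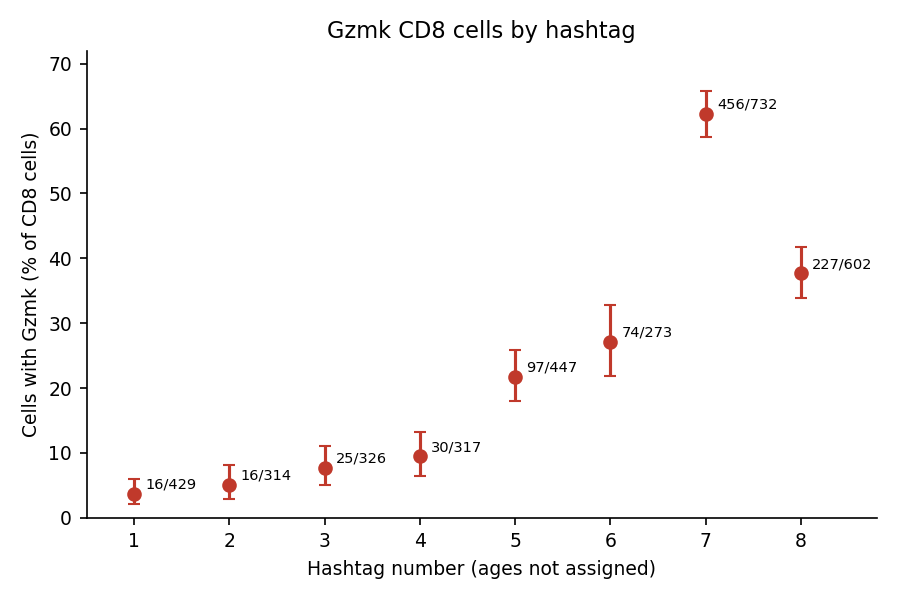
Share of CD8 cells with a UMI of Gzmk (y axis, percent) under each of the 8 hashtags (x axis), with exact 95% intervals and the counts of cells beside each point. The share was lowest at 3.73% for hashtag 1 and highest at 62.3% for hashtag 7.

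UMI counts were then summed per hashtag in each class and tested with hashtag as a block, which compares Gzmk CD8 cells with Gzmk-negative CD8 cells of the same hashtag. Of 7512 genes tested, 467 (6.22%) were higher in Gzmk CD8 cells and 593 (7.89%) lower at an adjusted p under 0.05 in edgeR's quasi-likelihood test. Among the 15 genes with the largest differences on the higher side, in the same direction under every hashtag, were the inhibitory receptor genes Tigit, Lag3 and Pdcd1, the chemokine gene Ccl3, the integrin gene Itga4 and the cytokine gene Ifng. The 12 on the lower side included the Ly49 genes Klra7 and Klra3, the naive cell gene Igfbp4, and H2-DMb1, Ly6d and Ctsh of antigen-presenting cells. For 107 genes (1.42%) every hashtag's value in Gzmk CD8 cells lay above every value in Gzmk-negative cells, and for 74 (0.985%) below.

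**Figure D2:**
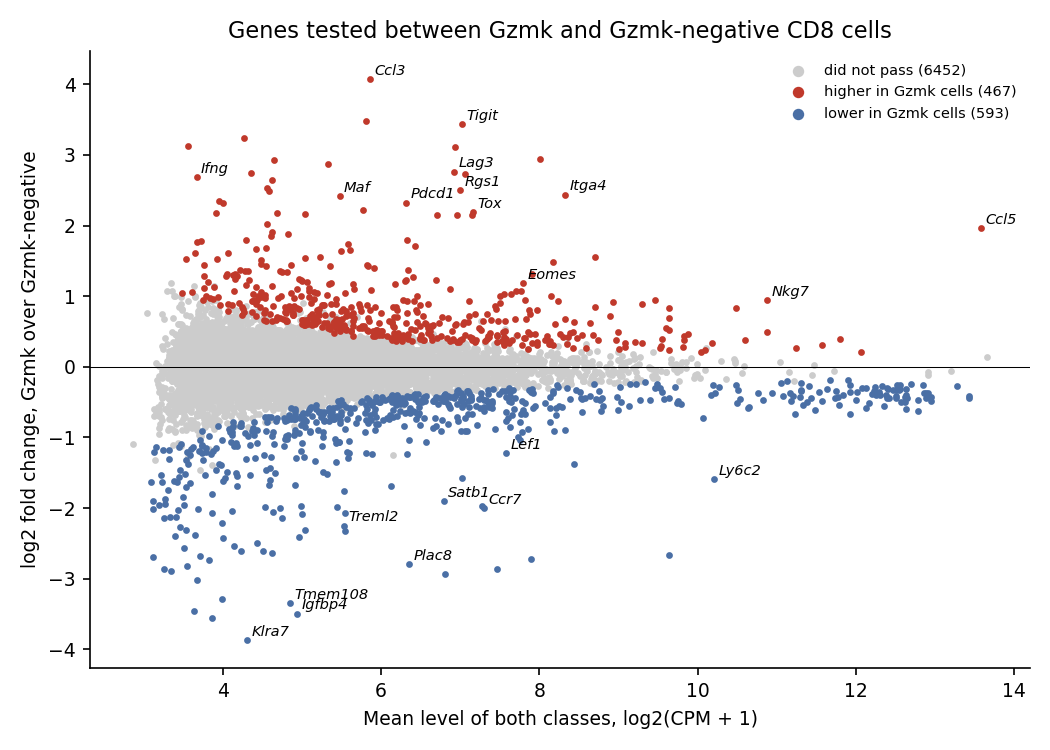
Each point is 1 of 7512 genes, with its mean level in both classes on the x axis (log2 of CPM + 1) and its log2 fold change of Gzmk over Gzmk-negative CD8 cells on the y axis; red and blue mark the 467 higher and 593 lower genes. Ccl3 and Tigit stand at the top, and Klra7, Igfbp4 and Tmem108 at the bottom.

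Inhibitory receptors and genes linked to T cell exhaustion were mostly higher in Gzmk CD8 cells. Of 12 tested genes of this list 8 were higher and 1 lower, with a median log2 fold change of 1.84, against -0.005 over all genes. Counts in this and the following lists stand beside 6.22% higher and 7.89% lower over all genes tested. Tigit, an inhibitory receptor for nectin family ligands, was at 57.1, 112, 77.6, 168, 119, 234, 264 and 323 CPM in Gzmk CD8 cells of hashtags 1 to 8, against 10.7, 10.8, 4.90, 10.2, 16.4, 17.1, 24.3 and 18.5 CPM in Gzmk-negative cells. The lowest Gzmk CD8 value was above the highest Gzmk-negative value, and the log2 fold change was 3.43 ± 0.15 (SE, 8 hashtags, adjusted p = 2.51e-15). Pdcd1, which encodes the checkpoint receptor PD-1, was at 45.7, 37.5, 116, 158, 103, 135, 138 and 171 CPM in Gzmk CD8 cells, against 19.7, 11.4, 6.74, 29.9, 23.5, 11.1, 38.5 and 23.9 CPM in Gzmk-negative cells. It was higher under each of the 8 hashtags, by 2.32 ± 0.18 (adjusted p = 1.77e-10), although the ranges of the classes just overlapped.

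Lag3, an inhibitory receptor that binds MHC class II, ranged over hashtags between 91.4 and 762 CPM with a median of 171 in Gzmk CD8 cells, and between 17.2 and 49.8 CPM with a median of 23.9 in Gzmk-negative cells. Its ranges did not overlap and its log2 fold change was 2.76 ± 0.25 (adjusted p = 4.05e-09). Tox, a nuclear protein needed for persistence of exhausted CD8 cells, was at 183, 62.5, 181, 189, 170, 365, 272 and 213 CPM in Gzmk CD8 cells, against 43.4, 51.4, 40.4, 42.6, 35.6, 37.5, 55.7 and 37.0 CPM in Gzmk-negative cells. All 8 values were above those of Gzmk-negative cells, with hashtag 2 far closer to them than the others, and the log2 fold change was 2.19 ± 0.16 (adjusted p = 3.29e-11). Nr4a2, an orphan nuclear receptor induced by receptor signalling, the NAD-consuming ectoenzyme gene Cd38 and Entpd1, which encodes the ectonucleotidase CD39, were higher by 2.53, 1.90 and 1.78 on the log2 scale. The exception was Cd160, whose log2 fold change was -0.73 (adjusted p = 0.0322) and which was lower under only 5 of 8 hashtags. Its call was lost in 3 of 8 leave-one-hashtag-out fits, those without hashtags 6, 7 and 8, at log2 fold changes of -0.65, -0.48 and -0.65. Ctla4 did not pass the test (0.51, adjusted p = 0.279), and Havcr2, the gene of TIM-3, was too low to test.

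In single cells thinned to 2000 UMIs and pooled over hashtags, of which hashtag 7 gave 318 of 668 Gzmk CD8 cells, Tigit had a UMI in 33.8% of Gzmk CD8 cells and 2.71% of Gzmk-negative cells, Pdcd1 in 21.4% and 3.52%, Tox in 36.7% and 7.84%, and Lag3 in 23.4% and 3.63%. By hashtag the thinned shares of Tigit and Lag3 were higher in Gzmk CD8 cells under all 8. For Pdcd1, 0 of 9 and 0 of 11 Gzmk CD8 cells of hashtags 1 and 2 had a UMI, against 3.13% and 0.901% of Gzmk-negative cells. For Tox, hashtag 2 had 9.09% in Gzmk CD8 cells and 10.8% in Gzmk-negative cells, and the other 7 hashtags were higher in Gzmk CD8 cells. Without thinning, Tigit was found in 44.5% and 5.20% and Pdcd1 in 31.3% and 6.60%. Most Gzmk CD8 cells therefore had no UMI of any given one of these genes at this depth.

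Chemokine genes were higher in Gzmk CD8 cells in all 4 cases tested, with a median log2 fold change of 2.45. Ccl3, which encodes the inflammatory chemokine MIP-1α, was at 11.4, 99.9, 38.8, 21.1, 114, 65.7, 75.3 and 203 CPM in Gzmk CD8 cells, against 1.79, 26.9, 4.29, 0.636, 0.547, 0.853, 2.03 and 6.56 CPM in Gzmk-negative cells. The classes overlapped only through hashtag 2, high in both, and the log2 fold change of 4.08 ± 0.33 (adjusted p = 4.47e-10) was the largest among the genes chosen for naming. Ccl4, which encodes the related chemokine MIP-1β, was higher by 2.95 ± 0.38, under 6 of 8 hashtags. Xcl1, the chemokine that draws cross-presenting dendritic cells, was higher by 0.80 ± 0.20 under 5 of 8 hashtags, and its call was lost without hashtag 5 (adjusted p = 0.055) or hashtag 8 (adjusted p = 0.084). Ccl5 was a given marker and its log2 fold change of 1.96 is a description.

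Among 5 tested cytokine genes, Ifng was higher and Tnfsf8 lower. Ifng, the gene of interferon gamma, was at 11.4, 25.0, 51.7, 21.1, 12.9, 14.6, 18.2 and 27.5 CPM in Gzmk CD8 cells, against 4.03, 2.39, 0.613, 5.09, 2.74, 2.56, 3.04 and 2.98 CPM in Gzmk-negative cells. The ranges did not overlap, and the log2 fold change was 2.68 ± 0.38 (adjusted p = 4.77e-06), but transcripts were few. The Gzmk CD8 sums of hashtags 1 to 4 held only 87558, 80048, 77368 and 95000 UMIs. Their place above the Gzmk-negative range therefore rests on very few UMIs of Ifng. In thinned cells pooled over hashtags 3.89% of Gzmk CD8 and 0.692% of Gzmk-negative cells had a UMI of it. Under hashtags 1 and 2, 0 of 9 and 0 of 11 thinned Gzmk CD8 cells had one, against 1.39% and 0% of Gzmk-negative cells. Under every other hashtag the thinned share was higher in Gzmk CD8 cells. Tnfsf8, which encodes the CD30 ligand, was lower by 1.76 on the log2 scale with no overlap between the classes. Tnf did not pass (0.52, adjusted p = 0.29).

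Cytotoxic granule genes were higher by smaller amounts. Of 11 tested, 5 were higher and 1 lower, with a median log2 fold change of 0.58. Nkg7, a granule membrane protein gene, was at 1654 to 3064 CPM (median 2216) in Gzmk CD8 cells and 809 to 1344 CPM (median 1102) in Gzmk-negative cells, with a log2 fold change of 0.95 ± 0.07 (adjusted p = 4.97e-11) and no overlap. Prf1, which encodes perforin, was higher by 0.62 ± 0.13 and Cst7, the inhibitor cystatin F of granule cathepsins, by 0.68 ± 0.10, both under all 8 hashtags. Srgn, the granule proteoglycan serglycin, was higher by 0.25, a call (adjusted p = 0.0345) that was lost without hashtag 3, 4, 5, 6, 7 or 8. Ctsw, the gene of cathepsin W, was lower by 0.24 on the log2 scale (adjusted p = 0.0217), a call lost without hashtag 7. The granzymes of terminal killers were too sparse to test: Gzma was at 0 to 228 CPM in Gzmk CD8 cells and 0 to 58.5 CPM in Gzmk-negative cells, and Gzmb at 0 to 68.3 CPM and 1.23 to 13.1 CPM.

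**Figure D3:**
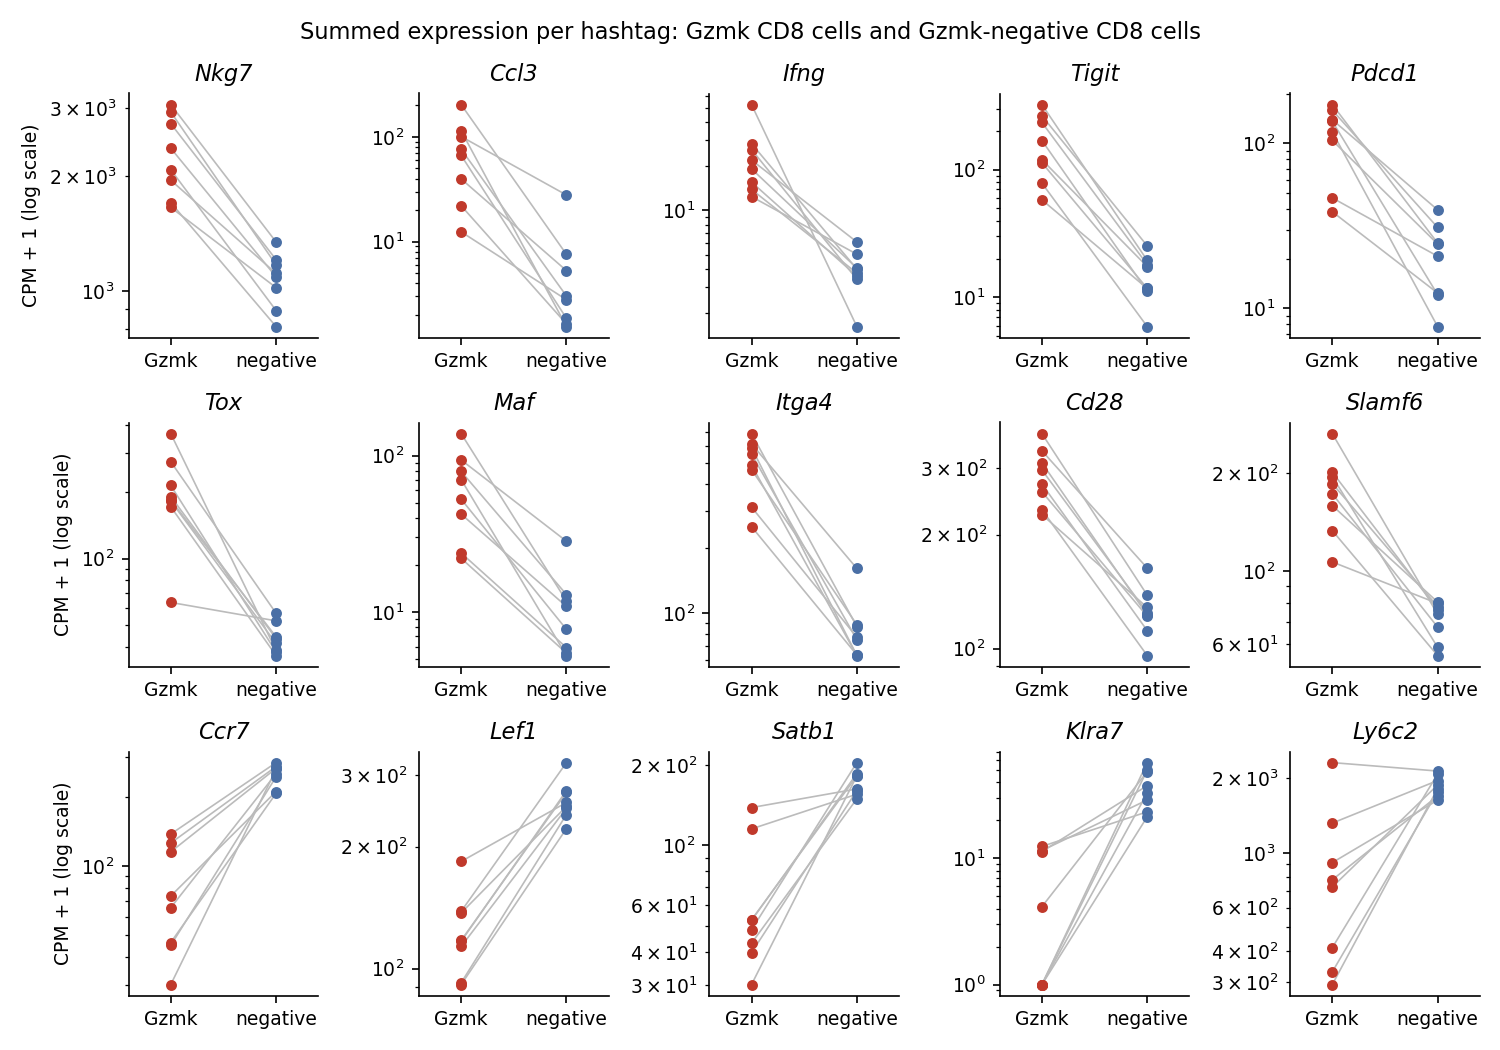
Expression of 15 genes summed per hashtag (CPM + 1, log axes that differ between panels), with Gzmk CD8 cells in red, Gzmk-negative CD8 cells in blue and a line joining the classes of 1 hashtag. All 8 lines slope the same way in every panel except Ly6c2, where hashtag 1 runs against the others at 2318 CPM in Gzmk CD8 cells.

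Transcription factors of T cell fate split between the classes, with 8 of 22 tested higher and 4 lower (median log2 fold change 0.25). Maf, a factor of follicular helper and interleukin-10-producing T cells, was at 22.8, 137, 51.7, 21.1, 41.3, 69.4, 92.9 and 78.2 CPM in Gzmk CD8 cells, against 4.92, 10.8, 6.74, 4.45, 9.85, 4.27, 27.4 and 11.9 CPM in Gzmk-negative cells, a log2 fold change of 2.42 ± 0.23 (adjusted p = 7.62e-09). It was higher under every hashtag, with an overlap that came from hashtag 7 of the Gzmk-negative cells. Rora, Bhlhe40, Id2 and Batf, all factors of effector or tissue T cells, were higher by 2.18, 1.54, 1.03 and 0.88. Eomes, a given marker, differed by 1.18. Satb1, a chromatin organiser that keeps PD-1 low in T cells, was at 29.2 to 137 CPM (median 49.4) in Gzmk CD8 cells and 148 to 203 CPM (median 171) in Gzmk-negative cells, and was lower by 1.90 ± 0.17 on the log2 scale (adjusted p = 2.38e-09). Lef1, Bach2 and Foxo1, factors of naive and stem-like cells, had log2 fold changes of -1.22, -0.72 and -0.42, of which the Bach2 call was lost without hashtag 5, 6 or 8 and the Foxo1 call without hashtag 5 or 8. Tcf7, which encodes TCF-1, the factor of stem-like memory cells, did not pass: it was at 114 to 323 CPM (median 229) in Gzmk CD8 cells and 220 to 298 CPM (median 240) in Gzmk-negative cells, with a log2 fold change of -0.23 (adjusted p = 0.132).

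Genes of naive and recirculating T cells were lower in Gzmk CD8 cells in 11 of 14 cases and higher in none, with a median log2 fold change of -0.86. Ccr7, the receptor that brings T cells into lymph nodes, was at 114, 125, 64.6, 137, 43.9, 29.2, 72.8 and 45.2 CPM in Gzmk CD8 cells, against 267, 271, 252, 283, 245, 264, 211 and 207 CPM in Gzmk-negative cells. Its ranges did not overlap, with a log2 fold change of -2.0 ± 0.15 (adjusted p = 1.43e-10). Igfbp4, an insulin-like growth factor binding protein gene of naive CD8 cells, was at 0 under 4 hashtags in Gzmk CD8 cells and at most 25.9 CPM, against 26.2 to 102 CPM in Gzmk-negative cells. S1pr1, the egress receptor, was lower by 0.41 on the log2 scale, a call lost without hashtag 8. The regulator Klf2, the interleukin-7 receptor gene Il7r and Tcf7 were the members that did not pass, with log2 fold changes of -0.07, -0.07 and -0.23. Since all cells had been sorted as CD44-high, Gzmk-negative cells were not naive by that gate.

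Receptors of the Ly49 family, which bind MHC class I and mark virtual memory CD8 cells, were low in Gzmk CD8 cells. Klra7, the gene of Ly49G, was at 0 under 4 hashtags and at 11.4, 10.5, 10.3 and 3.14 CPM under hashtags 1, 4, 5 and 7 in Gzmk CD8 cells, against 22.4, 20.3, 31.9, 28.0, 36.7, 56.3, 47.6 and 48.9 CPM under hashtags 1 to 8 in Gzmk-negative cells. The fitted log2 fold change was -3.87 ± 0.39 (adjusted p = 2e-08), the lowest of the genes chosen for naming. Klra3, another Ly49 gene, was lower by 3.02 on the fitted log2 scale. As Ly49 genes are near-identical copies of one another, the split of reads among them is uncertain. Of 8 NK receptor genes tested, 3 were lower and none higher, and Klrd1, which encodes CD94, did not pass (-0.29, adjusted p = 0.0698).

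Other memory markers moved in both directions. Itga4, the α4 integrin, was at 251 to 684 CPM (median 518) in Gzmk CD8 cells and 62.2 to 160 CPM (median 75.0) in Gzmk-negative cells, a log2 fold change of 2.44 ± 0.13 (adjusted p = 4.57e-14), and had a UMI in 62.1% and 13.3% of thinned cells pooled over hashtags. Hashtag 1 did not share this, with 11.1% of 9 Gzmk CD8 cells and 11.5% of Gzmk-negative cells. Its partner Itgb1 was higher by 1.0 ± 0.17, under 7 of 8 hashtags. Ly6c2, a Ly6C gene of memory CD8 cells, was at 2318, 912, 1318, 726, 777, 329, 292 and 412 CPM in Gzmk CD8 cells, against 2143, 1633, 1961, 1882, 1698, 1765, 1819 and 2084 CPM in Gzmk-negative cells. It was lower under 7 of 8 hashtags and higher under hashtag 1, with a log2 fold change of -1.59 ± 0.19 (adjusted p = 4.78e-07). Among 14 homing receptors 6 were higher and 3 lower: Cxcr5, which guides cells to B cell follicles, was higher by 1.43 ± 0.21, the LFA-1 chains Itgal and Itgb2 by 0.65 and 0.63, and the residence marker Cd69 was lower by 0.67 on the log2 scale. Cxcr6, a liver and tissue homing receptor, did not pass (-0.34, adjusted p = 0.184).

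Of 12 costimulatory genes 5 were higher and 2 lower. Cd28 was at 225 to 369 CPM (median 283) in Gzmk CD8 cells and 94.8 to 162 CPM (median 123) in Gzmk-negative cells, a log2 fold change of 1.08 ± 0.10 with no overlap. Slamf6, a receptor of stem-like exhausted cells, was higher by 1.10 ± 0.13, also with no overlap. Tnfrsf9, the gene of 4-1BB, was higher by 0.81, a call lost without hashtag 6, 7 or 8. Icos was higher by 0.51 (adjusted p = 0.0461), a call lost without hashtag 1, 2, 3, 5, 6 or 8. Cd226, the activating receptor that competes with TIGIT for ligand, was lower by 1.33 on the log2 scale under 7 of 8 hashtags.

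Genes of the MHC class I pathway were higher in 9 of 16 cases and lower in none (median log2 fold change 0.27). H2-Q7 and Tap1, a nonclassical class I gene and a peptide transporter subunit, were higher by 0.55 and 0.54, the classical genes H2-K1 and H2-D1 by 0.39 and 0.30, and B2m did not pass (0.07, adjusted p = 0.483). Class I genes are near-identical to one another, so the split of their reads is uncertain. Interferon response genes as a list did not lean one way, with 3 of 33 higher and 5 lower (median 0.15), shares of 9.09% and 15.2% against 6.22% and 7.89% over all genes. Ifi27l2a was higher by 0.89 under all 8 hashtags, while Ifngr1, the interferon gamma receptor chain, and Socs1, an inhibitor of its signalling, were lower by 0.92 and 0.58 on the log2 scale.

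Of 19 cell cycle genes 7 were higher and none lower (median log2 fold change 0.69), but this count moved with the cells and the reference used. Top2a, a topoisomerase of dividing cells, was at 217, 175, 25.9, 31.6, 152, 54.8, 28.2 and 28.6 CPM in Gzmk CD8 cells, against 82.3, 57.4, 9.19, 8.27, 53.6, 68.3, 22.3 and 27.4 CPM in Gzmk-negative cells. Its call (0.73, adjusted p = 0.0136) was lost without hashtag 1 or 5, and with the authors' cell filter, which caps the UMIs per cell, its log2 fold change was 0.04. In thinned cells it was -0.017. In cells with Xist and no Y-linked UMI 1 of 14 cell cycle genes (7.14%) was higher, near the 6.07% over all genes tested there. Against the Gzmk-negative cells with Ccl5 described further on 10 of 15 were, with a median of 1.16, beside 6.71% over all genes.

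Of 14 cytoskeleton and migration genes 5 were higher, all of the S100 and annexin families, and 3 lower. S100a10 was at 863 to 1324 CPM (median 1002) in Gzmk CD8 cells and 416 to 729 CPM (median 533) in Gzmk-negative cells, a log2 fold change of 0.83 ± 0.09 with no overlap. Anxa2, which pairs with S100a10, was higher by 0.86, and Vim and Tagln2 were lower by 0.61 and 0.62 on the log2 scale. Ribosomal protein genes, added as a list for this comparison, were lower in 77 of 81 cases by a median of 0.40 on the log2 scale. Immediate early genes were lower in 4 of 13 cases and higher in none, among them Myc at -1.06 and Jun at -0.69, the second lost without hashtag 8.

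Among the other genes with the largest differences, Ttc39c, Ier3 and Rgs1 were higher by 2.93, 2.73 and 2.50. Ier3 is an early response gene that limits cell death, and Rgs1 damps chemokine receptor signalling. Kremen2, Sdcbp2, Ildr1 and Ptpn13 were higher by 2.74, 2.49, 2.34 and 2.32, each without overlap between classes but at medians of only 22 to 26.7 CPM in Gzmk CD8 cells. On the lower side, Tmem108, Plac8, Zfp296, Treml2, Fam241a and Atp1b1 had log2 fold changes of -3.35, -2.80, -2.74, -2.25, -2.21 and -2.14. Treml2, a TREM family receptor, was at 0 to 50.0 CPM in Gzmk CD8 cells and 50.7 to 93.3 CPM in Gzmk-negative cells, with no overlap.

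H2-DMb1, Ly6d and Ctsh, with log2 fold changes of -3.56, -2.61 and -2.54, belong to B cells and other antigen-presenting cells, and markers of those cells differed between the classes. The 11 B cell markers summed to 274 to 2960 CPM (median 375) in Gzmk CD8 cells and 811 to 2097 CPM (median 1683) in Gzmk-negative cells, with Cd79a at 0 in both by the rule and the high Gzmk CD8 value in hashtag 3. The 8 dendritic cell markers summed to 146 to 1758 CPM (median 262) and 571 to 1823 CPM (median 1134), and the 10 myeloid markers to 193 to 1005 CPM (median 246) and 439 to 1116 CPM (median 774). The dendritic cell list includes Ccr7, the T cell gene given above as lower in the class, and shares Cst3 with the myeloid list. Part of the dendritic cell difference is therefore Ccr7, and the sums are not separate measures. Itgam, S100a8 and S100a9 were at 0 in Gzmk CD8 cells. In cells with exactly 1 productive TRB chain the MHC class II genes Cd74 and H2-Ab1, at -2.67 and -2.93 in all cells, had log2 fold changes of -0.03 and 0.085 (adjusted p = 0.989 and 0.964), and H2-DMb1, Ly6d and Ctsh were too low to test. The interferon regulatory gene Irf8 likewise had a log2 fold change of -1.48 in all cells and -0.08 in those cells. Not every marker lost its difference. In the same cells 2 of 4 tested B cell markers were lower and 1 higher, with a median log2 fold change of -0.46. Of the myeloid markers 1 of 4 was lower and 1 higher, and of the dendritic cell markers 1 of 3 was lower. Over all genes tested in those cells 5.49% were higher and 7.87% lower. Tigit, Lag3, Pdcd1, Tox and Itga4 kept log2 fold changes of 3.60, 2.81, 2.58, 2.22 and 2.62 there, and Ccr7 of -2.11.

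A second set of Gzmk-negative CD8 cells, limited to those with at least 3 UMIs of Ccl5, was used as a closer comparison, since these cells also carried the chemokine. Against it 416 of 6197 genes (6.71%) were higher and 517 (8.34%) lower. Tigit, Lag3, Pdcd1 and Tox were higher by 3.60, 4.00, 2.87 and 2.42, and Ccr7 and Lef1 were lower by 1.82 and 1.11 on the log2 scale. Of the granule genes only 3 of 11 were higher, Nkg7 by 0.66, while Prf1 did not pass (0.34, adjusted p = 0.098). NK receptor genes were lower in 6 of 8 cases. Both comparisons use the same Gzmk CD8 cells and their control cells overlap, so they are not independent.

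Within cells that had Xist and no Y-linked UMI, 319 of 5255 genes (6.07%) were higher and 314 (5.98%) lower. Tigit, Lag3, Pdcd1, Tox, Maf and Itga4 were higher there by 5.22, 3.60, 3.66, 3.26, 3.36 and 3.03, and Ccr7, Lef1 and Ly6c2 had log2 fold changes of -2.07, -1.36 and -2.45. Cd69 had a log2 fold change of -0.27 and did not pass (adjusted p = 0.43), nor did Bach2, Ctsw, Icos, Jun, S1pr1, Srgn and Top2a, all of which were called in all cells. Ifng was too low to test there.

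A clonotype was assigned to 87.9% of Gzmk CD8 cells and 80.8% of Gzmk-negative cells. A cell was called expanded when its clonotype had 2 or more kept cells in the same hashtag. Over all cells 393 of 827 Gzmk CD8 cells (47.5%) and 317 of 2020 Gzmk-negative cells (15.7%) were expanded, but the difference was not even across hashtags. In Gzmk CD8 cells the expanded share was 0, 0, 4.55, 30.8, 30.1, 38.2, 55.5 and 55.6% of 13, 15, 22, 26, 83, 68, 393 and 207 cells for hashtags 1 to 8. In Gzmk-negative cells it was 11.4, 8.47, 10.8, 6.28, 13.9, 9.77, 19.8 and 43.5% of 343, 248, 259, 239, 281, 174, 207 and 269 cells. Gzmk CD8 cells were the more expanded class under hashtags 4 to 8 and the less expanded under hashtags 1 to 3, where they had 22 receptor-bearing cells or fewer. The value of hashtag 3 came from 1 expanded Gzmk CD8 cell. Its direction turned when clonotypes were counted over all hashtags (13.6% and 12.7%) or cells were grouped by TRB junction (25% and 18%). The median within-hashtag difference was 14.2 percentage points (range -11.4 to 35.7), and an exact two-sided sign-flip permutation test over the 8 hashtags gave p = 0.125 (0.125 adjusted over 3 receptor measures), so it did not pass. With at least 2 Gzmk UMIs the median was 26.6 points over 6 hashtags, higher in 5 (exact permutation p = 0.0625, smallest possible 0.0313). In thinned cells, where hashtags 1 to 3 had too few cells to enter, it was 35.8 points over 5 hashtags, all higher, and the test could not go below its p of 0.0625. Cells were also grouped by TRB nucleotide junction in place of clonotype. Expanded shares were then 0, 0, 25, 50, 48.1, 46.3, 73.4 and 68% in Gzmk CD8 cells of hashtags 1 to 8. In Gzmk-negative cells they were 20.6, 13.1, 18, 19.1, 21.3, 11.7, 37.9 and 56.8%. The median difference was 19.0 points, higher under 6 of 8 hashtags (exact permutation p = 0.109).

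**Figure D4:**
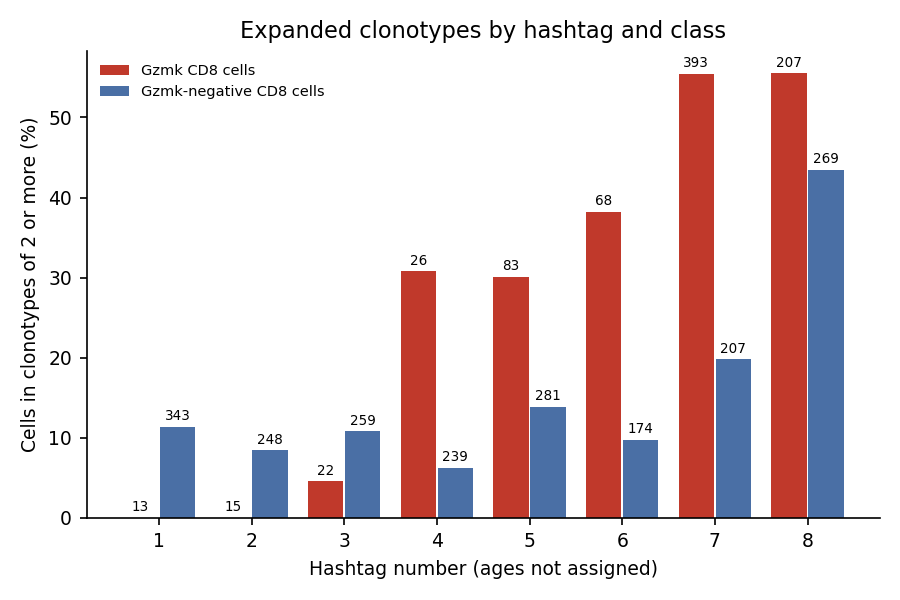
Share of receptor-bearing cells in clonotypes of 2 or more cells (y axis, percent) for Gzmk CD8 cells (red) and Gzmk-negative CD8 cells (blue) under each hashtag (x axis), with the number of cells above each bar. Under hashtags 4 to 8 the red bar is the taller, and under hashtags 1 and 2 it is at 0.

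For clonotypes of 3 or more cells the median difference was 9.35 points (exact permutation p = 0.0781, adjusted 0.117). The largest clonotype took a larger share of Gzmk CD8 cells than of Gzmk-negative cells under 8 of 8 hashtags, by a median of 4.52 points (exact permutation p = 0.0078, the smallest possible with 8 hashtags, adjusted 0.0234). Under hashtags 1 to 3 that largest clonotype was 1 cell, so its share was set by the small number of Gzmk CD8 cells alone. A clone of the same size takes a larger share of a smaller class. Gzmk CD8 cells were the smaller class under every hashtag except hashtag 7. The largest clone held 4 of 83 Gzmk CD8 cells and 8 of 281 Gzmk-negative cells under hashtag 5. Under hashtag 8 it held 8 of 207 and 10 of 269. Under hashtags 4 and 7 it held 23.1 and 7.38%, against 0.837 and 1.45%. The passing test therefore cannot tell larger clones from a smaller class.

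Counted within each hashtag, the 827 Gzmk CD8 cells with a receptor fell into 562 clonotypes under 559 deposited names. Of the 562, 464 had 1 cell of the class and 25 also held Gzmk-negative CD8 cells. Their cells held 434 different TRB junctions, fewer than the 539 clonotypes with a TRB chain, so some clonotypes shared one. Of 26 clonotypes with 5 or more CD8 cells, 17 had Gzmk in at least 80% of their CD8 cells (12 of them in all), 7 in at most 20% (5 of them in none), and only 2 lay between. Hashtag 7 held 13 of the 26 and hashtag 8 held 10. With clonotypes of 3 or more CD8 cells the counts were 42, 28 and 10 of 80. Most of the large clones were therefore largely of 1 class.

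**Figure D5:**
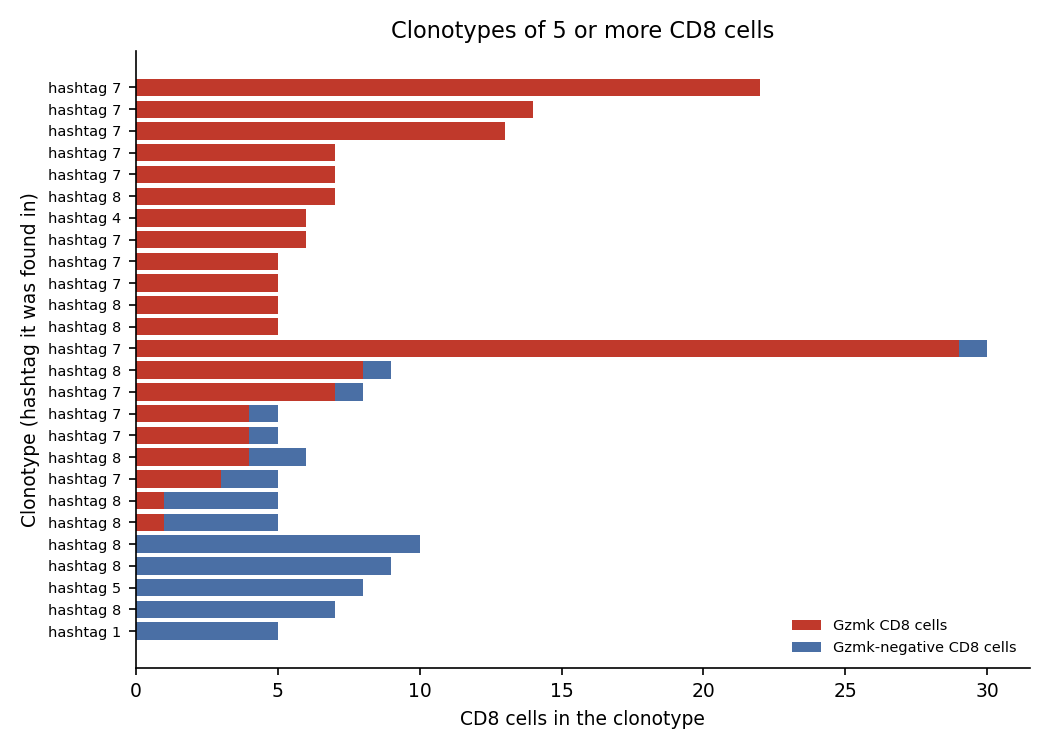
The 26 clonotypes with 5 or more CD8 cells, each a bar labelled by its hashtag, with the number of Gzmk CD8 cells in red and Gzmk-negative CD8 cells in blue (x axis, cells). Red fills at least 80% of 17 bars and at most 20% of 7.

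V gene use was broad. Counting each clonotype once, TRBV3 was used by 55 of 539 Gzmk CD8 clonotypes (10.2%) and 126 of 1809 Gzmk-negative clonotypes (6.97%), the more by Gzmk CD8 cells under 6 of 8 hashtags, and was the most used TRBV gene of the class. TRBV13-1 followed at 9.09% and 7.13% and TRBV16 at 8.35% and 7.52%. These shares were not tested. The TRB junction had a median length of 42 bases in both classes under hashtags 4 to 8.

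Within the class, expanded cells were compared with cells of single clonotypes in hashtags 5 to 8, which had at least 10 cells of each kind. Under hashtag 7 clones 1 to 4 gave 29, 22, 14 and 13 of the 218 expanded cells. A trait of 1 large clone can therefore appear as a difference between expanded and single cells. Some cells called single shared a TRB junction with other cells, since expanded shares by TRB junction were higher under these hashtags. Of 4114 genes 13 (0.316%) were higher and 6 (0.146%) lower in expanded cells. Maf was at 40.9, 113, 126 and 111 CPM in expanded cells of hashtags 5 to 8, against 36.9, 35.7, 58.0 and 35.5 CPM in single cells, a log2 fold change of 1.21 ± 0.22 (adjusted p = 0.00727). Tigit was at 184, 298, 332 and 396 CPM in expanded cells, against 99.6, 196, 201 and 252 CPM in single cells, a log2 fold change of 0.68 ± 0.14 (adjusted p = 0.0276). Both were higher under all 4 hashtags, as were Ier3 by 0.87 and Ccl5 by 0.41. Cd74, the MHC class II invariant chain, was higher by 1.23 ± 0.17 (adjusted p = 5.27e-04), at 174, 103, 185 and 187 CPM in expanded cells and 59.1, 59.4, 81.2 and 73.8 CPM in single cells.

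Ly6c2 was at 368, 0, 53.3 and 269 CPM in expanded cells of hashtags 5 to 8, against 937, 517, 477 and 577 CPM in single cells, with a log2 fold change of -2.04 ± 0.29 (adjusted p = 5.27e-04). Il7r was at 460, 308, 744 and 585 CPM in expanded cells, against 694, 606, 1054 and 861 CPM in single cells, with a log2 fold change of -0.62 ± 0.12 (adjusted p = 0.0137). Satb1 and Ifngr1 were lower by 1.30 and 0.87 on the log2 scale. Each of these genes was lower under all 4 hashtags. Pdcd1 was higher under all 4 as well but did not pass (0.66, adjusted p = 0.0579), and Tox did not pass (0.48, adjusted p = 0.487). Apart from Cd74 and Ly6c2, each of these calls was lost in at least 1 fit that left out a hashtag: Maf without hashtag 8, Ier3, Ifngr1 and Il7r without hashtag 7 or 8, Satb1 without hashtag 6, and Tigit and Ccl5 without hashtag 5, 7 or 8.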

How the data were processed

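Gene, hashtag and receptor files of 1 lymph node library were used. The deposited matrices hold UMI counts per barcode made by the authors with Cell Ranger 3.1.0, per the submitters' processing notes; coordinates are GRCm38. Here cells needed at least 200 genes, at most 10% mitochondrial UMIs, and a top hashtag of at least 10 UMIs and 3 times the second. The members and gene lists were chosen with earlier results of these data known. Counts were summed per hashtag and class (at least 10 cells) and tested with edgeR 4.0.16 (quasi-likelihood, TMM, filterByExpr, hashtag as block, Benjamini-Hochberg over all genes). CPM were computed from the sums of each class and hashtag. On simulated data 54% of genes changed 2-fold and 100% changed 4-fold were recovered, with 3.14% false calls. The simulation gave every gene the same dispersion and no hashtag effect, so these rates need not hold for the real counts. Named genes passed the test in the same direction under every hashtag and had 20 CPM or more in 1 class: the 15 highest and 12 lowest, besides markers and list members. Each hashtag gives both classes, which pairs them; the block was in the model. R 4.3.3, DESeq2 1.42.0, Python 3.11.15 and SciPy 1.17.1 were used. Clonotypes are as the authors deposited them.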

Additional observations from a re-analysis of the deposited data

Results flagged for a closer look

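In each of 30 sets of 8 hashtag values, the value farthest out was checked against Dixon's critical value, which chance alone exceeds in about 1 set in 20. For genes, 5 CPM was added to the value of each class before the ratio was taken. The ratio of Ifng in Gzmk CD8 cells over Gzmk-negative cells stood apart for hashtag 3, at 3.34 on the log2 scale, above the other 7 hashtags. The Gzmk CD8 sum of hashtag 3 held only 77368 UMIs from 25 cells, so this ratio rests on very few UMIs of Ifng. The same ratio for Tox stood apart for hashtag 2, at 0.26, below the other 7. The difference between the classes in the share of their largest clonotype stood apart for hashtag 4, at 22.2 percentage points, where the clone of 6 Gzmk CD8 cells shown above lies. The causes were not tested.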

How the results depend on the processing

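Against Gzmk-negative cells, 467 genes were higher and 593 lower with the hashtag block. Without the replicate block, so without the pairing of classes within a hashtag, 619 were higher and 756 lower. With cells thinned to 2000 UMIs the counts were 250 and 278 of 4448 genes, with no filter on low counts 534 and 915, and in cells with Xist and no Y-linked UMI (an alternative chosen after seeing the data, as were the Ccl5 reference and DESeq2 for expanded cells) 319 and 314 of 5255. Leaving out 1 hashtag at a time gave 322 to 488 higher and 466 to 603 lower. DESeq2, its size factors in edgeR, the stricter Gzmk and hashtag rules, cells with 1 TRB chain, the authors' cell filter and the Ccl5 reference gave counts within 1.5 times. Between expanded and single cells the counts were 13 and 6, against 4 and 1 without the block, 27 and 25 with no filter, 2 and 1 with DESeq2, and 2 to 15 and 2 to 6 leaving out a hashtag. The expanded share's median difference was positive under each alternative and 12.1 to 16.2 points leaving out a hashtag. It did not pass, although with thinned cells (35.8 points, 5 hashtags) the test could not. With at least 2 Gzmk UMIs the shares of hashtags 1, 2, 3, 5, 7 and 8 were 1.86, 2.55, 3.07, 15.2, 47.5 and 29.6%, and thinned cells gave 1.98, 3.83, 17.8 and 57.8% for hashtags 1, 3, 5 and 7. Of 107 gene results 38 lost their call under at least 1 alternative. Reversed signs were 0.068 for Tcf7 and -0.017 for Top2a in thinned cells, 0.078 for Il7r without the block and 0.085 for H2-Ab1 with 1 TRB chain, and the cause was not tested. Scrublet marked 0 cells, though 2416 barcodes carried 2 hashtags, so it had not worked and no values without doublets are given; doublets within a hashtag remain. Depth limits sparse genes such as Ifng and Gzmb most.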

Other observations

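The 18-month heart library gave 45 cells by the same rule among 195 CD8 cells with a Cd3 UMI (23.1%, exact 95% interval 17.4 to 29.6) and the 2-month heart library 3 of 103 (2.91%, 0.605 to 8.28). Without the demand for a Cd3 UMI these were 45 of 268 (16.8%) and 3 of 151 (1.99%). With 1 library per age there is no test.

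Within Gzmk CD8 cells, the share with Y-linked UMIs among those with Xist or Y-linked UMIs but not both was 12.5, 66.7, 40, 55.6, 47.2, 12.1, 4.25 and 10.2% for hashtags 1 to 8, against 51.5, 86.2, 36.4, 56.5, 60, 25.0, 16.5 and 14.7% in Gzmk-negative cells.

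Igkc, an immunoglobulin light chain gene, was higher in Gzmk CD8 cells by 2.15 on the log2 scale under 7 of 8 hashtags, at 22.8, 25.0, 25.9, 179, 95.5, 131, 280 and 115 CPM, against 30.0, 10.8, 7.97, 17.2, 24.6, 36.7, 42.6 and 19.1 CPM in Gzmk-negative cells. Other B cell genes went the other way, with Ighm lower by 0.88 on the log2 scale. Trgv2, a variable segment of the γ receptor chain, was higher by 3.12 under 7 of 8 hashtags, at 0 to 308 CPM (median 182) in Gzmk CD8 cells and 8.50 to 30.4 CPM (median 17.4) in Gzmk-negative cells, and the γδ T cell markers as a list had the higher sum under 7 of 8 hashtags, at 0 to 167 CPM (median 86.5) in Gzmk CD8 cells and 10.8 to 26.4 CPM (median 20.1) in Gzmk-negative cells. None of these markers could be tested in all cells, and 2 of 2 tested were higher in cells with Xist and no Y-linked UMI. Igkc and Trgv2 were chosen after their values were seen.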
